A study of Drosophila montana with 9 samples.

Results

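Adult reproductive diapause was examined in the northern malt fly *Drosophila montana* by setting 3 arrays of diapausing females against 3 arrays of reproducing females of the same age. The 6 arrays were chosen by their sample titles out of 9 in the series, the other 3 being of young females 1 day old, kept at 19°C with 24 h of light, which entered the fit for its estimate of spread. All females came from 1 isofemale line, a stock founded by a single wild female, collected at Oulanka in Finland. Diapausing females were 14 days old and had been kept at 16°C with 16 h of light and 8 h of darkness per day. Reproducing females were 14 days old and had been kept at 16°C with 24 h of light and 0 h of darkness. Each sample was the whole-body RNA of 13 females, and it was hybridized to a one-colour array that carried probes for candidate genes only. The day length differs between the groups as well as the reproductive state, so photoperiod and diapause cannot be told apart in this comparison. Diapause was not scored for the single females of a sample, and the array has no yolk or chorion gene that would show the state of the ovaries.

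In adult reproductive diapause the ovaries stop developing before yolk is laid down, feeding and metabolism are lowered, and tolerance of cold and starvation usually increases. The switch is set by day length, which insects read with their photoreceptors and circadian clock, and it is carried out through hormonal pathways that include insulin signalling. The genes on the array were picked by the authors because relatives of theirs had been tied to diapause, cold or heat tolerance, circadian rhythm, courtship or light perception in other flies. They comprise 101 candidate genes and 7 housekeeping genes, together 108 genes measured with 197 probes of 60 bases. Of the genes, 42 had 1 probe, 49 had 2 probes and 17 had 3 or more.

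Values are the mean signal of a spot, in arbitrary units, or that signal after variance stabilizing normalization (VSN), which puts the arrays on a common log2 scale. On these 6 arrays, between 120 and 147 of the 197 probes were well above background. Counted by gene, 70 of the 108 were above background on all 6 arrays and 15 on none. The 3 slides each carried 1 array per group, always at the same positions, so array position and group cannot be told apart. The array of reproducing replicate 40 stood apart. It gave the lowest value of the 3 reproducing arrays for 78 of the 108 genes, and without it the median over all genes was -0.14. It had the fewest probes above background (120), an SD of 20.4 between its negative control spots against 2.20 to 6.95 on the other 5 arrays, and correlations of 0.922 and 0.928 with the other reproducing arrays across probes, where those correlated at 0.993. The median deviation from the group mean, taken over genes, was -0.37 for this array. It was largest for diapausing replicate 27, at 0.62, which was thus high for genes in general.

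One gene was called higher in diapausing females and 0 were called lower. limma called only *Dca* at an adjusted p under 0.05 (Benjamini-Hochberg over the 108 genes) and a fold change over 2, which is 0.926% of the genes tested. At an unadjusted p under 0.05 there were 9 genes (8.33%), with 4 fitted higher (3.7%) and 5 fitted lower (4.63%) in diapausing females. For 10 genes the groups had no array in overlap (9.26%), of which 4 were higher and 6 lower in diapausing females (3.7% and 5.56%). The log2 fold change is the mean normalized value of diapausing minus that of reproducing females, also called the log2 difference. Over all 108 genes its median was -0.03, with 52 genes fitted higher and 56 lower. With other scalings that median lay between -0.48 and 0.27, and a fold change stands relative to the median of its own setting.

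**Figure D1:**
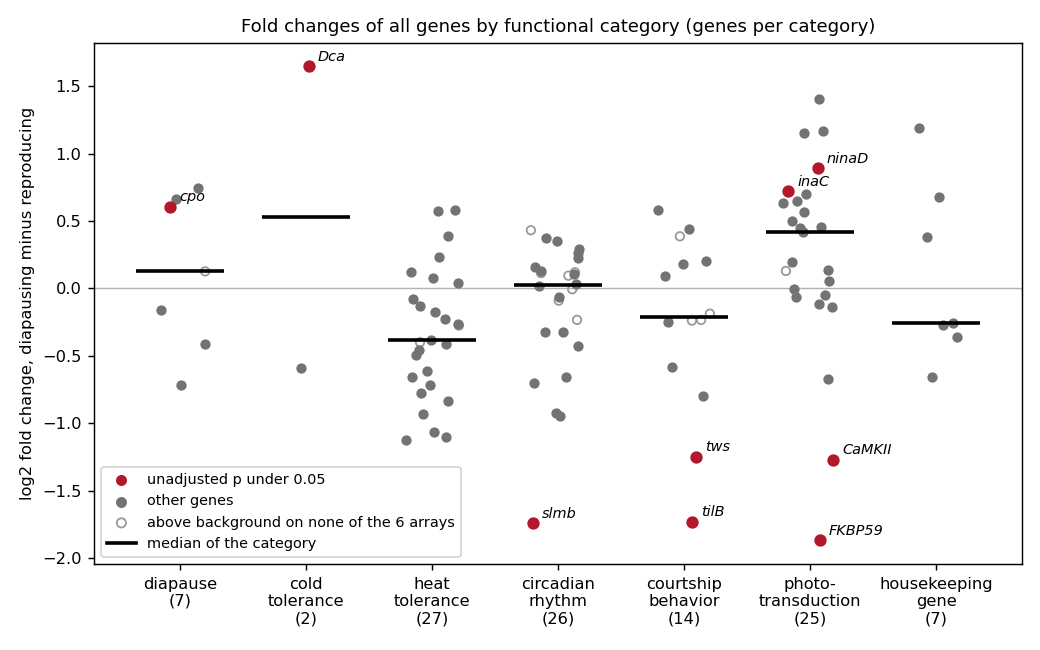
Log2 fold change (diapausing minus reproducing females, VSN values) of each of the 108 genes, by functional category with the number of genes in brackets; bars are category medians. *Dca* stood highest at 1.65 and *FKBP59* lowest at -1.87, and the medians ran from -0.38 for heat tolerance to 0.53 for the 2 genes of cold tolerance.

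*Dca*, the *Drosophila cold acclimation* gene, encodes a protein of the regucalcin family, and its transcript is known to rise at low temperature in *D. melanogaster*. It had normalized log2 values of 12.37, 11.63 and 11.56 on the arrays of diapausing replicates 27, 42 and 43, against 10.52, 10.24 and 9.86 on those of reproducing replicates 22, 23 and 40. All 3 diapausing arrays lay above all 3 reproducing arrays, and the gap between the nearest arrays was wider than the range within either group. The mean was 11.85 ± 0.45 in diapausing and 10.21 ± 0.33 in reproducing females (SD, n = 3 each), a 3.13-fold difference (log2 difference 1.65, SE 0.29, adjusted p = 0.0431 in limma). The differences within the slides were 1.85, 1.39 and 1.70. Young females had a mean of 10.50 ± 0.15 (SD, n = 3).

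The 4 *Dca* probes are shown because all of them were higher in diapausing females, to different degrees. The capitals mark the 46 bases that both DCA_3 probes share, so these 2 probes are not independent of each other.
DCA_3 (1): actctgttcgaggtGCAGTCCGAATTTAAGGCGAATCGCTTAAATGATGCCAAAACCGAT
DCA_3 (2): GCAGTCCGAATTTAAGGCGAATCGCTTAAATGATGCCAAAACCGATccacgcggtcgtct
DCA_1: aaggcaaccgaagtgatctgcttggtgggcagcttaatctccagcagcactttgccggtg
DCA_2: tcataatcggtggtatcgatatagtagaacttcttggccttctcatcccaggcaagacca

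Before normalization, the first DCA_3 probe of *Dca* gave 60007, 52168 and 51991 in diapausing females, against 17340, 12000 and 10698 in reproducing females. The second gave 55769, 70529 and 52778 in diapausing females, against 14445, 11859 and 10504 in reproducing females. At both, every diapausing array was far brighter than the brightest reproducing array. DCA_1 gave 444, 380 and 404 in diapausing females, against 229, 195 and 103 in reproducing females. DCA_2 gave 284, 226 and 231 in diapausing females, against 177, 162 and 196 in reproducing females. At every probe the lowest diapausing array was above the highest reproducing one, and DCA_2 gave the narrowest separation. After normalization the log2 fold changes of the probes were 2.11 and 2.33 for DCA_3, 1.55 for DCA_1 and 0.60 for DCA_2, so the value for the gene depends on how its probes are combined. DCA_1 and DCA_2 were far dimmer than the DCA_3 probes on every array, yet entered the mean of the gene with equal weight. Whether all these probes match the same strand of the transcript was not tested. With each probe tested by itself, limma called both DCA_3 probes (adjusted p = 0.0172 and 0.00415 over 197 probes) and neither of the others. With slide as a block the gene was no longer called (adjusted p = 0.0605), nor was it with only the 6 arrays in the fit (0.291) or on leaving out any 1 of the 9 arrays except diapausing replicate 27. Without reproducing replicate 40 the log2 fold change was 1.41 (limma adjusted p = 0.0724), and over the 9 refits it lay between 1.41 and 1.83.

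None of the 7 genes of the diapause category was called. Their median log2 fold change was 0.13, against -0.03 over all genes, with 4 fitted higher and 3 lower in diapausing females, and it was -0.18 without reproducing replicate 40. *couch potato* (*cpo*) encodes an RNA-binding protein, and natural variants of the gene are known to alter diapause in *D. melanogaster*. It had normalized log2 values of 8.09, 7.82 and 7.85 in diapausing females, against 7.44, 7.29 and 7.23 in reproducing females. The arrays did not overlap, and the differences within the slides were close to each other at 0.65, 0.54 and 0.63. The log2 fold change was 0.61 (SE 0.25), 1.52-fold higher in diapausing females, and it was not called (limma adjusted p = 0.479).

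That value averages a bright and a dim probe, which share no stretch of 15 or more bases and so have no capitals.
cpo_2_L: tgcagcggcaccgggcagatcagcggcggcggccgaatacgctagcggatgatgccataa
cpo_2F2R: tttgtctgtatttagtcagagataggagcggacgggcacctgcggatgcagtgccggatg

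At cpo_2_L the signal before normalization was 1914, 2157 and 2567 in diapausing females, against 1019, 990 and 707 in reproducing females. At cpo_2F2R it was 80.3, 80.6 and 73.5 in diapausing females, against 83.8, 74.5 and 72.7 in reproducing females, and the probe was not above background on any of the 6 arrays. Only the first probe therefore carried a measurable level, and its arrays did not overlap. Its log2 fold change was 1.37 (SE 0.33), 1 of 197 probes tested, and it was not called (limma adjusted p = 0.130).

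The insulin receptor *InR* and the catalytic subunit of its downstream kinase, *Pi3K92E*, were measured close to background. *InR* had 6.07, 5.06 and 5.03 in diapausing females, against 5.86, 5.43 and 5.33 in reproducing females, above background on all arrays but 1 (log2 difference -0.16, SE 0.34, adjusted p = 0.826 in limma). *Pi3K92E* was not above background on any of the 6 arrays, and no fold change is given. *Adh*, alcohol dehydrogenase, had 16.61, 13.23 and 14.80 in diapausing females, against 15.32, 14.82 and 12.26 in reproducing females, with a spread within the groups wider than the difference between them (log2 difference 0.75, SE 0.96, adjusted p = 0.732 in limma). For diapausing replicate 42 only 1 of its 2 probes entered, the spot of the other being marked as an outlier. *Dat*, which acetylates dopamine and other amines, had 11.35, 11.16 and 11.14 in diapausing females, against 11.72, 11.78 and 11.38 in reproducing females. Its arrays did not overlap, by a narrow margin, and it was not called (log2 difference -0.41, SE 0.25, adjusted p = 0.642 in limma). *CrebB17A*, a transcription factor that responds to cyclic AMP, had the lowest fold change of the category (-0.72, SE 0.53, limma adjusted p = 0.645), while the mitochondrial gene *CoI* stood at 0.66, but at -0.069 with normexp background correction and quantiles and at -0.076 with the deposited table.

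**Figure D2:**
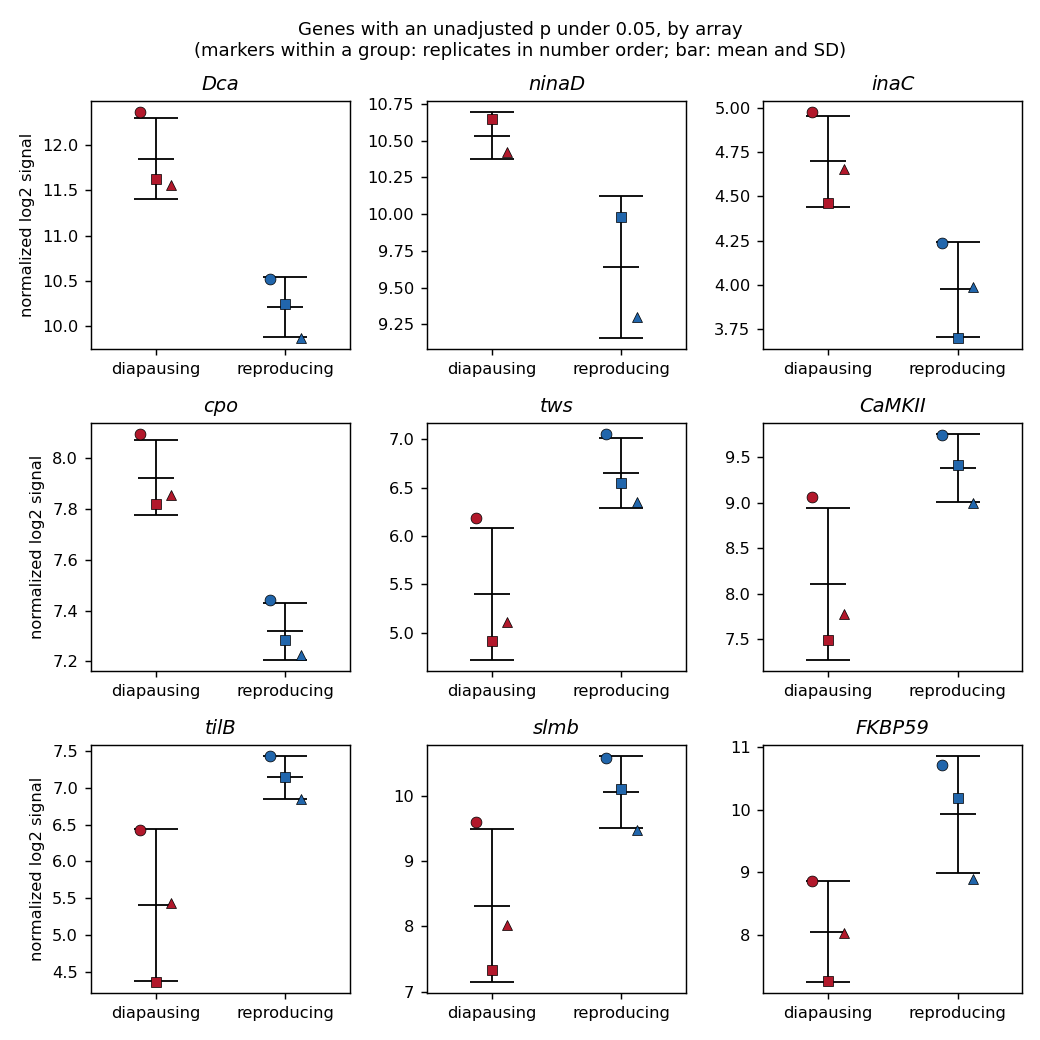
Normalized log2 signal (VSN) of the 9 genes with an unadjusted p under 0.05, for each array of diapausing (left, red) and reproducing females (right, blue), with the group mean and SD as bars. The groups do not overlap for *Dca*, *inaC*, *cpo*, *tws*, *tilB* and *FKBP59*, diapausing replicate 27 (circle) is the highest of its group wherever it was measured, and for *ninaD* only 2 arrays per group had a value.

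On the lower side, 5 genes had an unadjusted p under 0.05 and 0 passed the adjustment. *FKBP59* encodes a peptidyl-prolyl isomerase that works with Hsp90 and binds the light-gated channel TRPL in fly photoreceptors. It had 8.87, 7.27 and 8.04 in diapausing females, against 10.70, 10.18 and 8.90 in reproducing females. The highest diapausing array was just under the lowest reproducing array. The log2 fold change was -1.87 (SE 0.53, adjusted p = 0.268 in limma), and without reproducing replicate 40 it was -2.31 (limma adjusted p = 0.0724).

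The *FKBP59* probes are shown because they separated the groups to different degrees, and they share no stretch of 15 or more bases.
FKB59_1_1: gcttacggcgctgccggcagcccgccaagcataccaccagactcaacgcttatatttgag
FKB59_1_2: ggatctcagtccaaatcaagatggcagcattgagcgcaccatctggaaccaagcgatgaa

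At FKB59_1_2 the signal before normalization was 304, 286 and 449 in diapausing females, against 2490, 1675 and 898 in reproducing females. At FKB59_1_1 it was 594, 193 and 294 in diapausing females, against 1307, 922 and 389 in reproducing females. The groups were apart at the first of these probes and overlapped at the second. The log2 fold changes were -2.34 at FKB59_1_2 and -1.39 at FKB59_1_1. Of single probes, limma called FKB59_1_2 (adjusted p = 0.0308), the only probe called lower in diapausing females. With the brighter probe standing for the gene, *FKBP59* was called, as it was in 6 of 14 processing alternatives in all.

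*slmb* encodes the F-box protein of a ubiquitin ligase that degrades phosphorylated proteins, the clock protein PER among them. It had 9.61, 7.33 and 8.02 in diapausing females, against 10.59, 10.11 and 9.48 in reproducing females, with diapausing replicate 27 overlapping reproducing replicate 40. The log2 fold change was -1.74 (SE 0.55, adjusted p = 0.268 in limma), and its 2 probes gave -1.80 and -1.68. *tws* encodes a regulatory subunit of protein phosphatase 2A, which removes phosphate from PER. It had 6.18, 4.91 and 5.11 in diapausing females, against 7.05, 6.54 and 6.35 in reproducing females. The arrays of *tws* did not overlap, and its log2 fold change was -1.25 (SE 0.38, adjusted p = 0.268 in limma). Its values on diapausing replicates 42 and 43 were close to the lowest value of any probe above background on those arrays (4.91 and 4.92). Which strand of the *tws* transcript its only probe matches was not tested, so the signal is not shown to be that of the messenger RNA. *CaMKII*, a protein kinase activated by calcium and calmodulin with roles in synapses, had 9.06, 7.50 and 7.78 in diapausing females, against 9.74, 9.41 and 9.0 in reproducing females, with an overlap at 1 array (log2 difference -1.27, SE 0.48, adjusted p = 0.451 in limma).

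*tilB* (touch insensitive larva B) is needed to assemble the motile cilia of hearing neurons and of sperm. It had 6.43, 4.37 and 5.44 in diapausing females, against 7.43, 7.14 and 6.85 in reproducing females. The groups did not overlap, and the gene was above background on 2 of the 3 diapausing arrays and on all 3 reproducing arrays. The log2 fold change was -1.73 (SE 0.51, adjusted p = 0.268 in limma). In young females the mean was 4.58 ± 0.56 (SD, n = 3), so the mean was highest in reproducing females. Without diapausing replicate 27, the array with the highest level of its group for *slmb*, *tws* and *tilB*, limma called these 3 genes as lower in diapausing females (adjusted p between 0.0232 and 0.0240), among 6 genes called in that refit.

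The 4 genes of the hearing organ, *tilB* included, had a median log2 fold change of -0.03, the same as all genes, and *nan* and *btv* were above background on none of the 6 arrays. *nan*, a channel of hearing neurons, had non-overlapping values (4.55, 4.38 and 4.52 in diapausing females, against 4.61, 4.66 and 4.89 in reproducing females), which lie below background, and no fold change is given.

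The genes of heat tolerance were the category with the lowest median. Of the 27 genes, 20 were fitted lower and 7 higher in diapausing females, at a median of -0.38 against -0.03 over all genes. Within the slides the median of the category was -0.00, -1.06 and -0.10, where over all 108 genes it was 0.05, -0.41 and 0.01. The slide with diapausing replicate 42 and reproducing replicate 23 was thus the lowest for the category and for all genes alike. The arrays did not overlap for 0 of the 27 genes, and limma called 0 of them, with 0 at an unadjusted p under 0.05.

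Among the chaperones, the Hsp90 machine stood lowest. *Hsp83*, the Hsp90 of flies, had 9.91, 7.47 and 8.17 in diapausing females, against 9.96, 9.75 and 9.22 in reproducing females (log2 difference -1.12, SE 0.56, adjusted p = 0.642 in limma). Without diapausing replicate 27 it was called as lower in diapausing females (-1.76, limma adjusted p = 0.0232). *Hop*, which passes client proteins from Hsp70 to Hsp90, had 8.96, 6.51 and 7.33 in diapausing females, against 9.13, 9.02 and 7.43 in reproducing females (log2 difference -0.93, SE 0.65, adjusted p = 0.642 in limma). On diapausing replicate 27 both genes were at the level of the reproducing arrays, and on diapausing replicate 42 the difference to the reproducing array of the same slide was -2.27 for *Hsp83* and -2.51 for *Hop*. With *FKBP59* and the kinase co-chaperone *Cdc37*, the 4 genes had a median of -1.03 and were all fitted lower, *Cdc37* at -0.13 and, with 3 other scalings, between 0.21 and 0.36.

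The Hsp70 family comprises chaperones of each cell compartment. Of its 6 genes 5 were fitted lower in diapausing females, at a median of -0.69. *Hsc70-4*, the main Hsp70 of unstressed cells, had 8.71, 6.70 and 6.96 in diapausing females, against 8.35, 8.09 and 8.25 in reproducing females (log2 difference -0.78, SE 0.49, adjusted p = 0.642 in limma). Diapausing replicate 27 was the highest of the 6 arrays and the other diapausing arrays were the lowest. The member of the endoplasmic reticulum, *Hsc70-3*, had 6.95, 5.68 and 5.79 in diapausing females, against 6.95, 6.85 and 6.58 in reproducing females (log2 difference -0.66, SE 0.34, adjusted p = 0.642 in limma). The 5 co-chaperones of the DnaJ type had a median of -0.22, and of -0.68 without reproducing replicate 40. The small heat shock proteins keep unfolding proteins in solution, and *Hsp20* was the highest gene of the category with 12.16, 11.78 and 11.52 in diapausing females, against 11.64, 11.81 and 10.27 in reproducing females (log2 difference 0.58, SE 0.40, adjusted p = 0.642 in limma). Its groups overlapped, and without reproducing replicate 40 the difference was 0.066. *Hsp26*, of the same family, had 8.65, 5.14 and 7.58 in diapausing females, against 8.29, 8.60 and 7.68 in reproducing females, with the lowest value on diapausing replicate 42 (log2 difference -1.07, SE 0.77, adjusted p = 0.642 in limma). *Cdk9*, a kinase that releases paused RNA polymerase, stood at -0.17 (SE 0.54, adjusted p = 0.854 in limma), with differences within the slides of 1.12, -1.64 and 0.00. The other gene of cold tolerance beside *Dca*, the splicing helicase *Prp5*, had 6.08, 4.95 and 5.13 in diapausing females, against 6.47, 6.08 and 5.38 in reproducing females (log2 difference -0.59, SE 0.42, adjusted p = 0.642 in limma).

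The array also holds a probe for *Hsc70-4* on the opposite strand, which is not in the authors' table and did not enter the gene's value. It is shown with the listed probe because probes on opposite strands bind opposite copies of a transcript. The capitals mark the 33 bases of each that are complementary to the other.
Hsc70_4_1F1R: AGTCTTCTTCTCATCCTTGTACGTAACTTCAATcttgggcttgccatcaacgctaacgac
Hsc70_4_1F1R_K: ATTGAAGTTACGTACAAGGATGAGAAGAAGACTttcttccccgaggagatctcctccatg

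Before normalization, the opposite probe of *Hsc70-4* gave 5637, 1900 and 2570 in diapausing females, against 10448, 6598 and 3430 in reproducing females. The listed probe gave 438, 193 and 217 in diapausing females, against 469, 383 and 450 in reproducing females. Both probes were above background on all 6 arrays, and at both the lowest values were those of diapausing replicates 42 and 43. The opposite probe, which the gene's value leaves out, was the brighter of the 2 on all 6 arrays. Which strand of this gene the labelled RNA binds was not tested.

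The circadian clock runs on transcription factors whose products are phosphorylated, dephosphorylated and degraded in a daily cycle. Diapausing females lived in a light-dark cycle and were frozen in the light period, while reproducing females had constant light, so the phase of the clock cannot be told apart from diapause. The 26 genes of the category had a median log2 fold change of 0.02, with 14 fitted higher and 12 lower. Of the 4 transcription genes, 1 was above background on all 6 arrays. *period* (*per*) had 5.55, 5.15 and 5.11 in diapausing females, against 5.03, 5.16 and 4.94 in reproducing females (log2 difference 0.23, SE 0.23, adjusted p = 0.717 in limma). *timeless* (*tim*) was above background on none of the 6 arrays.

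The 5 genes that modify or degrade clock proteins were all fitted lower in diapausing females, at a median of -0.94. Beside *slmb* and *tws* they include the alpha subunit of casein kinase 2 (*CkIIα*), which had 11.92, 9.99 and 10.45 in diapausing females, against 12.52, 11.97 and 10.71 in reproducing females (log2 difference -0.94, SE 0.58, adjusted p = 0.642 in limma). *dco* (doubletime), the kinase that marks PER for degradation, had 6.13, 4.77 and 5.10 in diapausing females, against 6.35, 5.70 and 5.24 in reproducing females (log2 difference -0.43, SE 0.42, adjusted p = 0.717 in limma). The groups overlapped for both. For 4 of the 5 genes the diapausing array was lower on all 3 slides, where 25.9% of all 108 genes were lower and 9.26% higher on all 3 slides.

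Genes of courtship behaviour gave 4 of the 6 non-overlapping lower genes, namely *tilB*, *tws*, *nan* and *cac*, that is 4 of 14 genes where the share over all genes was 5.56%. Of these, *nan* was below background and *cac* close to it. The median of the 14 genes was -0.21, with 8 fitted lower and 6 higher. *cac*, the pore-forming subunit of a neuronal calcium channel that also shapes courtship song, had 4.52, 4.64 and 4.72 in diapausing females, against 4.94, 4.93 and 4.75 in reproducing females (log2 difference -0.25, SE 0.28, adjusted p = 0.717 in limma). The margin between the groups of *cac* was narrow. Its diapausing values lay under the lowest value of any probe above background on those arrays (4.98, 4.91 and 4.92). The log2 fold changes of its probes ran from -0.54 to 0.14 and so differed in sign. *nonA*, an RNA-binding protein needed for normal song, had 5.08, 4.66 and 4.64 in diapausing females, against 5.25, 4.88 and 6.01 in reproducing females, with reproducing replicate 40 the highest array (log2 difference -0.58, SE 0.31, adjusted p = 0.642 in limma, and -0.18 without that array). The highest of the category was *ari-1*, a ubiquitin ligase, at 0.58 (SE 0.80, adjusted p = 0.746 in limma) with that array and -0.43 without it. Among other genes the paper names for this comparison, *Fmr1*, a repressor of translation in neurons that the paper lists under circadian rhythm, was above background on 1 of the 6 arrays. No fold change is given for it. *CG7650*, a relative of phosducin, was above background on 4 of the 6 arrays and stood at -0.05 (SE 0.24, adjusted p = 0.914 in limma).

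The genes of phototransduction had the highest median of the larger categories, 0.42 for 25 genes with 17 fitted higher, and it depended on 1 array. Without reproducing replicate 40 the median was -0.11. Light is captured by opsins, which act through a G protein and a phospholipase C on ion channels and are switched off by arrestins. *Arr2*, an arrestin of the eye, had 14.45, 11.74 and 12.08 in diapausing females, against 12.99, 13.14 and 7.93 in reproducing females. Before normalization this was 17579, 4222 and 5340 in diapausing females, against 8598, 9345 and 313 in reproducing females. The *Arr2* value of reproducing replicate 40 was far below all others, and the log2 fold change was 1.40 (SE 1.33, adjusted p = 0.717 in limma) with it and -0.34 without it.

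On a list of 13 genes used by photoreceptors, the mean normalized log2 value of the list was between 7.99 and 9.81 on the diapausing arrays and between 6.57 and 8.98 on the reproducing arrays, and reproducing replicate 40 was the lowest reproducing array for 9 of the 13, where it was so for 78 of all 108 genes. The defining marker *ninaE*, the main opsin of the eye, had 72887, 30081 and 35888 at its brighter probe in diapausing females, against 47411, 55077 and 1881 in reproducing females, and it was above background on every array. The median of the list was 0.77, -1.04 and 1.52 within the slides. *norpA*, the phospholipase C, had 8.24, 7.33 and 7.53 in diapausing females, against 7.83, 7.85 and 6.31 in reproducing females (log2 difference 0.37, SE 0.50, adjusted p = 0.746 in limma, and -0.15 without that array). Whether photoreceptor RNA in that sample was part of other differences was not tested. In whole bodies, fewer cells of a type and less RNA per cell cannot be told apart.

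**Figure D3:**
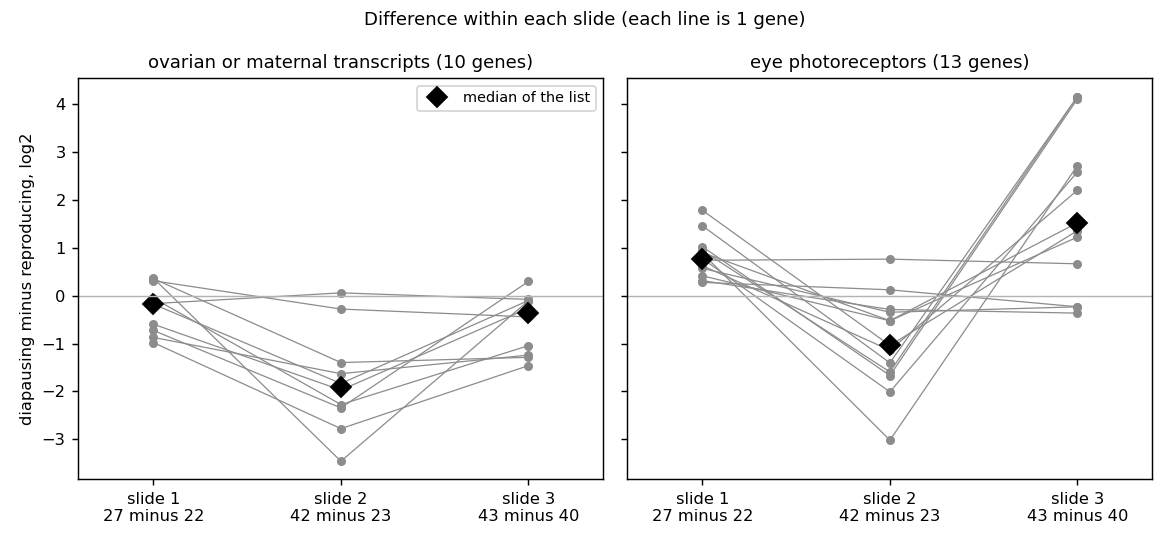
Difference in normalized log2 signal between the diapausing and the reproducing array of the same slide, for 10 genes with ovarian or maternal transcripts in *D. melanogaster* (left) and 13 photoreceptor genes (right), with 1 line per gene and diamonds for the medians. The medians were -0.17, -1.90 and -0.35 for the first list and 0.77, -1.04 and 1.52 for the second.

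Only a pair of phototransduction genes had an unadjusted p under 0.05 on the higher side. *ninaD*, a receptor for the uptake of carotenoids from which the visual pigment is made, had 10.65 and 10.42 on diapausing replicates 42 and 43, against 9.98 and 9.30 on reproducing replicates 23 and 40. The spots of its only probe were marked as outliers on diapausing replicate 27 and reproducing replicate 22, so the fit used 2 arrays per group (log2 difference 0.89, SE 0.33, adjusted p = 0.451 in limma). *inaC*, the protein kinase C of the eye, was above background on 1 diapausing array and on 0 reproducing arrays. Its values of 4.98, 4.46 and 4.65 in diapausing females, against 4.24, 3.70 and 3.99 in reproducing females, do not overlap, but no fold change is given. *Pgm*, phosphoglucomutase of glycogen metabolism, stands in the same category of the array, and it had 8.01, 7.05 and 6.99 in diapausing females, against 6.96, 6.85 and 6.30 in reproducing females. Its arrays did not overlap, by a margin smaller than the spread within either group, and it was not called (log2 difference 0.65, SE 0.33, adjusted p = 0.642 in limma).

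Genes with transcripts that ovaries or eggs are known to hold in *D. melanogaster* were all fitted lower. The 10 genes of this list had a median log2 fold change of -0.93, against -0.03 over all genes, with 10 fitted lower, 5 of them on all 3 slides, and 2 at an unadjusted p under 0.05. Over all genes 25.9% were lower on all 3 slides and 4.63% lower at that p. The mean of the list was between 6.67 and 8.54 on the diapausing arrays and between 7.79 and 8.79 on the reproducing arrays, so the groups overlapped. Without reproducing replicate 40 the median was -1.33 and all 10 were again lower. Of the 10, *Fmr1* was above background on only 1 of the 6 arrays. *sgg* stood at -0.14, and at 0.24 with the 75th percentile of the processed signal. These genes are used in many tissues, the list shares *slmb*, *tws*, *CkIIα* and *Hsp83* with the groups above, and the part of the ovaries in these differences was not tested. The 9 neuronal genes had a median of -0.19, with 5 fitted lower and 4 higher, and 3 of them were above background on all 6 arrays.

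None of the 7 housekeeping genes was called, with a median log2 fold change of -0.26. The glycolytic enzyme *Gapdh1* had 16.19, 14.94 and 14.97 in diapausing females, against 15.11, 14.76 and 12.66 in reproducing females (log2 difference 1.19, SE 0.63, adjusted p = 0.642 in limma, and 0.40 without reproducing replicate 40). Its paralog *Gapdh2* stood at -0.26 (SE 0.39, adjusted p = 0.765). Of the ribosomal protein genes, *RpL11* stood at -0.66 (SE 0.42), *RpL19* at 0.67 (SE 0.54) and *RpL27A* at 0.38 (SE 0.30), with limma adjusted p-values between 0.642 and 0.662. *RpL19* was at 7.24 on reproducing replicate 22 and between 8.92 and 9.78 on the other 5 arrays. The translation factors *Ef1α48D* and *eIF-4a* stood at -0.27 (SE 0.38) and -0.36 (SE 0.40), neither of them called. Across the 5 genes of energy metabolism, *Adh*, *Pgm*, *Gapdh1*, *Gapdh2* and *CoI*, 4 were fitted higher in diapausing females, with a median of 0.66 with reproducing replicate 40 and 0.29 without it.

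Leaving out reproducing replicate 40 also moved other uncalled values by more than 1.5 times. The log2 fold change was then 0.26 for *CoI*, 0.37 for *Pgm* and 0.51 for *ninaD*, and *Adh* stood at -0.22. *CkIIα* stood at -1.47, *eIF-4a* at -0.71, *Cdk9* at -0.33, *Ef1α48D* at -0.14, *CG7650* at -0.10, *per* at 0.10 and *RpL27A* at 0.096. The category medians were then -0.14 for the housekeeping genes, -0.13 for courtship and -0.081 for the circadian genes, and that of the hearing organ list was 0.10.

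Where a gene had several probes, these mostly gave the same direction. Of the 66 such genes, the probes had the same sign for 44. For some of these genes the probes share up to 58 bases, so they are not independent of each other. Of the 37 genes with every probe above background on at least 4 of the 6 arrays it was 34, and of the remaining 29 genes it was 10. *Dca* on the higher side and *FKBP59*, *slmb*, *tilB* and *tws* on the lower side kept their direction under all 14 processing alternatives.

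**Figure D4:**
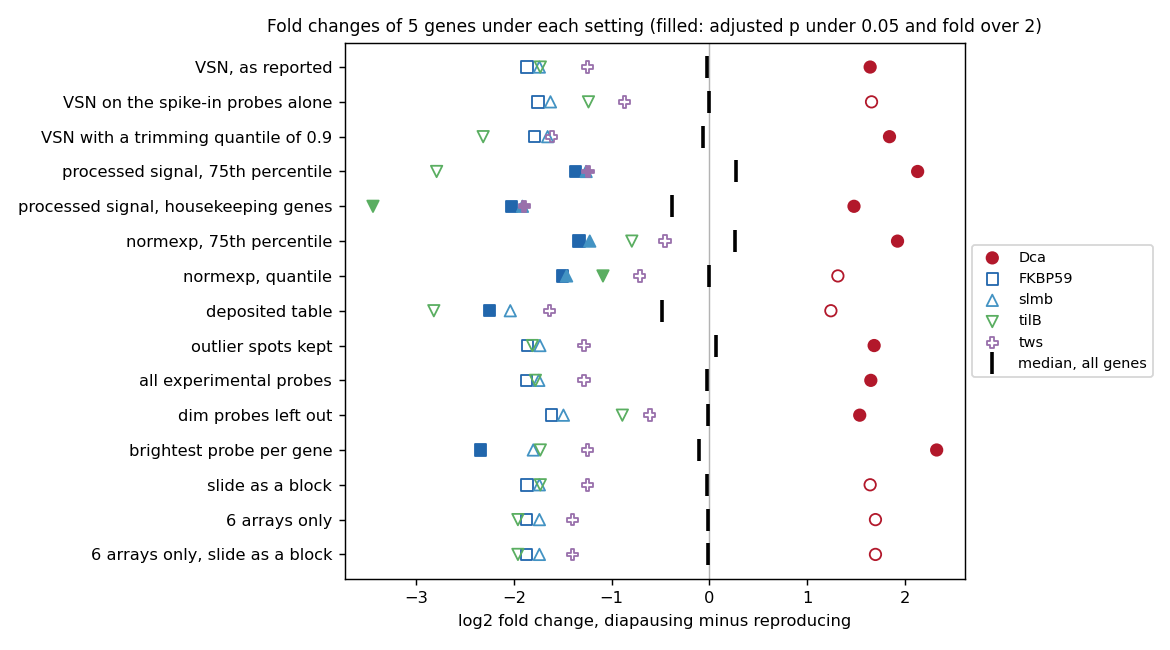
Log2 fold change of 5 genes and the median over all genes (black bars) under the reported setting and 14 alternatives, filled where limma's adjusted p was under 0.05 and the fold over 2. *Dca* stayed between 1.25 and 2.33 and *FKBP59* between -2.34 and -1.33.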

How the data were processed

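Spot intensities were deposited by the authors as scanner output of Agilent Feature Extraction (9.5.1.1 per the file headers) for 772 features per one-colour array. The deposited table of intensity values covers 197 of 208 experimental probes, and its normalization is not settled, so it served as an alternative. Mean signals of the probes and the 200 spike-in spots were normalized together with VSN over all 9 arrays. VSN was written out in R 4.3.3 and used a trimming quantile of 0.5. Control spots were left out of the tests, as were 4 experimental spots marked as outliers and the 11 other probes. Copies of a probe and then the probes of a gene were averaged. The strand of the transcript that a probe matches was not tested for any gene. lmFit and eBayes of limma 3.58.1 were fitted on 3 groups of 3 arrays (6 residual degrees of freedom). Benjamini-Hochberg adjustment ran over the 108 genes, and a gene was called where its adjusted p was under 0.05 with more than a 2-fold difference. The script was tested on simulated data.

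Named genes are those called, with an unadjusted p under 0.05, with non-overlapping arrays, on a list taken from the study's account of this comparison, at the end of a category or used for housekeeping. *Hsc70-4*, *Hsp26*, *Cdc37*, *CoI*, *btv* and *ninaE* fall outside this rule and were named after their values were seen. Members and lists were chosen with earlier results of these data known. For lists other than the categories, values without reproducing replicate 40 keep the normalization of all arrays, and the others are refits. Replicates are separate samples of 13 females, and nothing says whether they came from separate cultures, so p-values measure the spread between these samples. The small number of arrays limits precision. The yeast per vial differs between the labels (1 mg) and the study's methods. RefSeq gene tables matched 81 of the 108 gene symbols, with no chromosome, so no coordinates are given.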

Additional observations from a re-analysis of the deposited data

Results flagged for a closer look

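Probes outside the deposited table gave signal above background on all arrays of the comparison with a usable spot. Their signal before normalization is given as the median over the 6 diapausing and reproducing arrays, and none of them entered a gene's value. The 2 probes for histone *His3.3A* had medians of 15612 and 5650, with log2 differences of diapausing minus reproducing females of -1.32 and -0.42. The opposite-strand probe for *Hsc70-4* had a median of 4534 and a difference of -1.03. A consensus probe for *CkIIα* had a median of 4593 and a difference of -0.42, without the outlier spot of diapausing replicate 42. All its 60 bases are those of a listed *CkIIα* probe, which had a log2 fold change of -1.24 after normalization. The 2 probes for the actin *Act42A* had medians of 200.2 and 330 and differences of opposite sign, -0.28 and 0.71. The opposite-strand probe for *spin* had a median of 85.6, close to background.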

How the results depend on the processing

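No paired analysis was possible because the replicate numbers of diapausing and reproducing females are all different, except through the slides, as a block. The count of 1 called gene became 0 with VSN on the spike-in probes alone, with slide as a block, and with only the 6 arrays fitted, without or with that block (8, 7, 7 and 7 genes at an unadjusted p under 0.05 in limma). It became 10 with the processed signal scaled to the 75th percentile, 7 with it scaled to housekeeping genes, 5 with normexp and the 75th percentile, 4 with normexp and quantiles, 2 with the brightest probe per gene, and 3 of 197 when each probe was tested by itself. Leaving out 1 array gave 6 genes without diapausing replicate 27 and 0 without any other, young ones included. The called gene with the deposited table was *FKBP59*. *Dca* kept its direction throughout but lost its call with spike-in VSN (1.66), normexp and quantiles (1.32), the deposited table (1.25), the slide block (1.65) and both fits of 6 arrays (1.70 each). Leaving out 1 array gave 1.41 to 1.83. Its limma adjusted p ranged between 0.00231 and 0.291 over the 14 alternatives.

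The sign of some uncalled genes turned, in part under settings that moved the median of all genes. Relative to that median, *eIF-4a*, *cac*, *dco*, *norpA*, *Adh* and *Arr2* turned under 0 of the 14 alternatives. Relative to it, *Dat* and *ari-1* turned under 1, *InR*, *Cdk9* and *Ef1α48D* under 2, and *CG7650* and *Gapdh2* under 3. With the 75th percentile of the processed signal, *Dat* was 0.20, *InR* 0.62, *Ef1α48D* 0.15, *eIF-4a* 0.17 and *Gapdh2* 0.30. With normexp and the 75th percentile, *Dat* was 0.0036, *cac* 0.16, *InR* 0.20, *dco* 0.050, *CG7650* 0.23, *Cdk9* 0.21, *Ef1α48D* 0.14, *eIF-4a* 0.054 and *Gapdh2* 0.15, and with quantiles *Cdk9* was 0.0036 and *Ef1α48D* 0.092. With the deposited table, *Ef1α48D* was 0.51, *Gapdh2* 0.10, *norpA* -0.045, *ari-1* -0.70, *Adh* -0.17 and *Arr2* -0.36. *CG7650* was 0.074 with outlier spots kept, 0.032 without dim probes and 0.10 with the brightest probe, where *Cdk9* was 0.050. Leaving out 1 array gave ranges of -0.42 to 0.042 for *InR*, -0.10 to 0.065 for *CG7650*, -0.65 to 0.26 for *Cdk9*, -0.66 to 0.0015 for *Ef1α48D*, -0.66 to 0.032 for *Gapdh2*, -0.15 to 0.65 for *norpA*, -0.43 to 1.22 for *ari-1*, -0.22 to 1.61 for *Adh* and -0.34 to 2.33 for *Arr2*.

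The median over all genes was 0.27 and -0.38 with the processed signal (75th percentile, housekeeping), 0.26 with normexp and the 75th percentile, and -0.48 with the deposited table. In the same order, that of the circadian category was 0.29, -0.37, 0.28 and -0.47, and that of courtship 0.15, -0.50, 0.24 and -0.53. The courtship median was also -0.10 with spike-in VSN, -0.43 with a trimming quantile of 0.9, -0.035 with normexp and quantiles and -0.11 without dim probes. With the brightest probe the circadian median was -0.12 and that of cold tolerance 1.08. The median log2 fold change, cold tolerance genes alone, was 0.00169 with housekeeping scaling, 0.93 with normexp and the 75th percentile and -0.14 with the deposited table. The 75th percentile of the processed signal put the diapause category at 0.62 and the housekeeping genes at 0.30, and the deposited table put phototransduction at -0.36. Leaving out 1 array gave -0.18 to 0.22 for the diapause category. The cause of these changes was not tested.

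Of the 197 probes, 44 were above background on none of the 6 arrays, as were all probes of 15 genes, for which no level was measured.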
